A study of Mus musculus with 2 samples.

Results

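Aminoacyl-tRNA synthetases are the enzymes that attach each amino acid to its transfer RNA, and their genes were followed here in maps of PHLPP1-associated DNA from mouse bone marrow-derived macrophages. The members were taken by name from the RefSeq protein-coding genes of GRCm38: the cytosolic enzymes, both subunits of the cytosolic phenylalanyl enzyme, and the mitochondrial enzymes with the suffix 2, with Ears2 counted as the mitochondrial form for glutamate. All 37 genes were found, 20 cytosolic and 17 mitochondrial, among 21887 protein-coding genes. Each gene was described by its gene-end peaks, which are peaks whose summit, the position of highest signal, lay within 1 kb of either annotated end of the gene. The family was selected on the gene-end peaks themselves, since it was proposed with the strong peaks of Fars2, Farsb and Lars2 already known. The counts below therefore describe the members and test nothing.

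PHLPP1 is a protein phosphatase known for acting on the kinase AKT, and the chromatin was profiled by CUT&Tag, in which an antibody guides a transposase to tag nearby DNA. The macrophages were grown from bone marrow cells in M-CSF at 20 ng/ml. They are taken as wild-type from the series' design text and extraction protocol; the treatment protocol names Phlpp1-deficient cells as well, and neither sample carries a genotype label. There was 1 untreated library and 1 library from cells given IL-4, a cytokine of alternative activation, at 20 ng/ml for 4 h, so no difference between them has a replicate check. How many mice the marrow came from is not given in the sources used here, and no control antibody, input or Phlpp1-deficient library was analysed here. The comparison asks where PHLPP1 signal lies before and after IL-4. A total of 149349 untreated and 240661 IL-4 peaks were listed, with medians of 5 and 4 fragments at the summit. Most of them did not reach a deposited q of at most 0.05, which 21879 untreated and 30010 IL-4 peaks did. The largest listed q was 0.465 untreated and 0.405 with IL-4, so a listed peak is not by itself a confident one. The weakest listed summits held 4 untreated or 3 IL-4 fragments, and the lowest local background was 1.46 times as high in the untreated library. A weak untreated site can therefore be unlisted where an IL-4 site of the same number is listed. Of 10 macrophage marker genes, 6 had an IL-4 gene-end peak and 2, Cd68 and Tyrobp, had one at a q of at most 0.05, against 6 and 1 of 15 markers of other cells and 49.3% and 18.3% of all protein-coding genes. Csf1r, Adgre1, Itgam and Lyz2, defining genes of macrophages, had none in either list. A peak list of this kind does not measure expression.

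Each cell needs 2 sets of these enzymes, since mitochondria translate their own messages and take in a separate set of synthetases encoded in the nucleus. Gars and Kars are exceptions, each giving the glycyl or lysyl enzyme to both compartments. In the cytosol several synthetases, among them the fused glutamyl-prolyl enzyme of Eprs, sit in a multi-synthetase complex held together by the scaffold proteins of Aimp1, Aimp2 and Eef1e1. Many cytosolic synthetase genes are known targets of ATF4, the transcription factor of the amino acid response.

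The starts of Farsb and Fars2 lay under the strongest IL-4 peaks of the family, whereas the IL-4 and untreated peaks of Lars2 lay at the opposite end of the gene. The sequences around these starts are shown first, from RefSeq on build GRCm38.p6, 250 bases before and 50 after the annotated transcript start, read 5′ to 3′ on the strand of the gene. Wars2, Yars, Tars and Iars were added after their values were seen. Wars2, Yars and Tars had the next strongest IL-4 peaks around these transcript starts. Iars carries an exact match to the form of the amino acid response element searched here. Capitals mark matches, on either strand, to the 9 motifs described further on.
Farsb: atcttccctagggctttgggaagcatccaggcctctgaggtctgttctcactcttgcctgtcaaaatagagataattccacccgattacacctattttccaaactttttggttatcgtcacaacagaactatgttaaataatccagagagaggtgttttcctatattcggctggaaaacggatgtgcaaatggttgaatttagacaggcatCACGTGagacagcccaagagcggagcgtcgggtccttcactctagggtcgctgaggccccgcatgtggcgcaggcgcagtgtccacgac
Fars2: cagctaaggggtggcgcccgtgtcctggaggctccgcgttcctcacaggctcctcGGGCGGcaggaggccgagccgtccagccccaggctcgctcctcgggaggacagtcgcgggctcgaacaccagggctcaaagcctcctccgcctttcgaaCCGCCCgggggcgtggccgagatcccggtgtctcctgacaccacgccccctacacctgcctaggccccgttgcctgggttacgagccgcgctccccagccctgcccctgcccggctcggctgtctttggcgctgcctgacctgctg
Lars2: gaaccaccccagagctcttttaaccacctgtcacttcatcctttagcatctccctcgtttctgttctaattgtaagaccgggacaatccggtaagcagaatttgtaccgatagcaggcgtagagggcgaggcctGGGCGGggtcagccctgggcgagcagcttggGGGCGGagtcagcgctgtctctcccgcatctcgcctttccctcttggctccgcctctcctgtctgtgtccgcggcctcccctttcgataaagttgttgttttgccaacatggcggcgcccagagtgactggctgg
Wars2: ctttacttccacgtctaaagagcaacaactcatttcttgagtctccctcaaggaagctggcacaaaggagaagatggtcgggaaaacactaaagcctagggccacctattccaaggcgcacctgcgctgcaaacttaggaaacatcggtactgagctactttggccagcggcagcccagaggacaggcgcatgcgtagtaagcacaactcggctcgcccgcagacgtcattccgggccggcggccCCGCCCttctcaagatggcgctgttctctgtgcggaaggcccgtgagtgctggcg
Yars: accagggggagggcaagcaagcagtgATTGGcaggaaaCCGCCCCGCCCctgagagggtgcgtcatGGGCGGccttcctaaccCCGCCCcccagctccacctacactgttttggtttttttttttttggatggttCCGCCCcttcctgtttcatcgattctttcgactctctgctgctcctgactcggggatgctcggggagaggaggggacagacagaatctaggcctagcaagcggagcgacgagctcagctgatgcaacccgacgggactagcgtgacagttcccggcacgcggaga
Tars: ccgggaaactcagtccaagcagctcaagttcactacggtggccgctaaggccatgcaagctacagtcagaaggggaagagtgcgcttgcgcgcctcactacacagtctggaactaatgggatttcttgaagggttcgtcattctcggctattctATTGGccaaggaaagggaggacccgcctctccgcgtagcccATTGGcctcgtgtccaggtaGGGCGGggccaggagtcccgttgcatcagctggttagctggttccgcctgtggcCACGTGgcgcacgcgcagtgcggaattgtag
Iars: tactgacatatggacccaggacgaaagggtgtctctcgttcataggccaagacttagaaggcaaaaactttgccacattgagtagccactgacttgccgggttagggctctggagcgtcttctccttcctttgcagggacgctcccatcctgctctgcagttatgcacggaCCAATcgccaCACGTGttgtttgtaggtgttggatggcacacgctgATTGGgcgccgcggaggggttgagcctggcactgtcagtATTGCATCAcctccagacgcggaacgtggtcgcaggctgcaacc
The windows lie at chr1:78488848-78489147 for Farsb (minus strand), chr13:36117393-36117692 for Fars2 (plus), chr9:123366677-123366976 for Lars2 (plus), chr3:99140840-99141139 for Wars2 (plus), chr4:129189653-129189952 for Yars (plus), chr15:11399609-11399908 for Tars (minus) and chr13:49681880-49682179 for Iars (plus). Farsb holds a single motif match, the E-box CACGTG, and Fars2 holds 2 matches to GGGCGG in a window of 71.7% G and C.

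The phenylalanyl-tRNA synthetase genes held both of the strongest IL-4 peaks. Fars2, encoding the mitochondrial enzyme, had an IL-4 peak of 30 fragments (exact Poisson 95% interval 20.2 to 42.8, which like all such intervals here covers counting error only) on chromosome 13 from 36117449 to 36118042. Its deposited fold enrichment over the local background was 13.2 and its −log10 q was 23.9, the third highest of 12924 IL-4 gene-end peaks. The untreated list had no gene-end peak at Fars2. The summit lay 306 bp inside the annotated gene and 91 bp after the transcript start of the sequence above, and it was also within 1 kb of an end of Lyrm4, a gene of iron-sulphur cluster assembly. Farsb, encoding the β subunit of the cytosolic enzyme, had an IL-4 peak of 23 fragments (14.6 to 34.5) on chromosome 1 from 78488659 to 78489252, with a fold of 11.7 and a −log10 q of 17.6. This peak ranked 15 of 12924, lay 109 bp before the start, was shared with no other protein-coding gene end and had no untreated counterpart within 1 kb. Farsa, encoding the α subunit of the same cytosolic enzyme, differed from its partner in these lists. It had 6 IL-4 fragments (2.20 to 13.1, −log10 q 1.59) at its far end and 5 untreated fragments (1.62 to 11.7, −log10 q 0.74) near its start.

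Lars2, whose product charges leucine in mitochondria, had a strong peak in both lists, and it was the strongest of all 5198 untreated gene-end peaks by −log10 q. The untreated peak held 22 fragments (13.8 to 33.3) on chromosome 9 from 123461792 to 123462187, at a −log10 q of 14.8 and a fold of 10.4. The IL-4 peak held 15 fragments (8.40 to 24.7) from 123461792 to 123462178, at a −log10 q of 6.50 and a fold of 6.51. The summits were 10 bp apart, and the peaks began at the same base. Both lay inside the gene, 634 and 624 bp before its far end, and 95114 and 95124 bp from its start, where neither list had a peak within 1 kb. The ratio of IL-4 to untreated fragments was 0.68, with an exact interval of 0.33 to 1.38 that includes equal numbers. Scaled by the background at each site the ratio was 0.57, and scaled by the lowest background of each library it was 0.99. A lower signal with IL-4 was therefore not detectable at this depth.

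**Figure D1:**
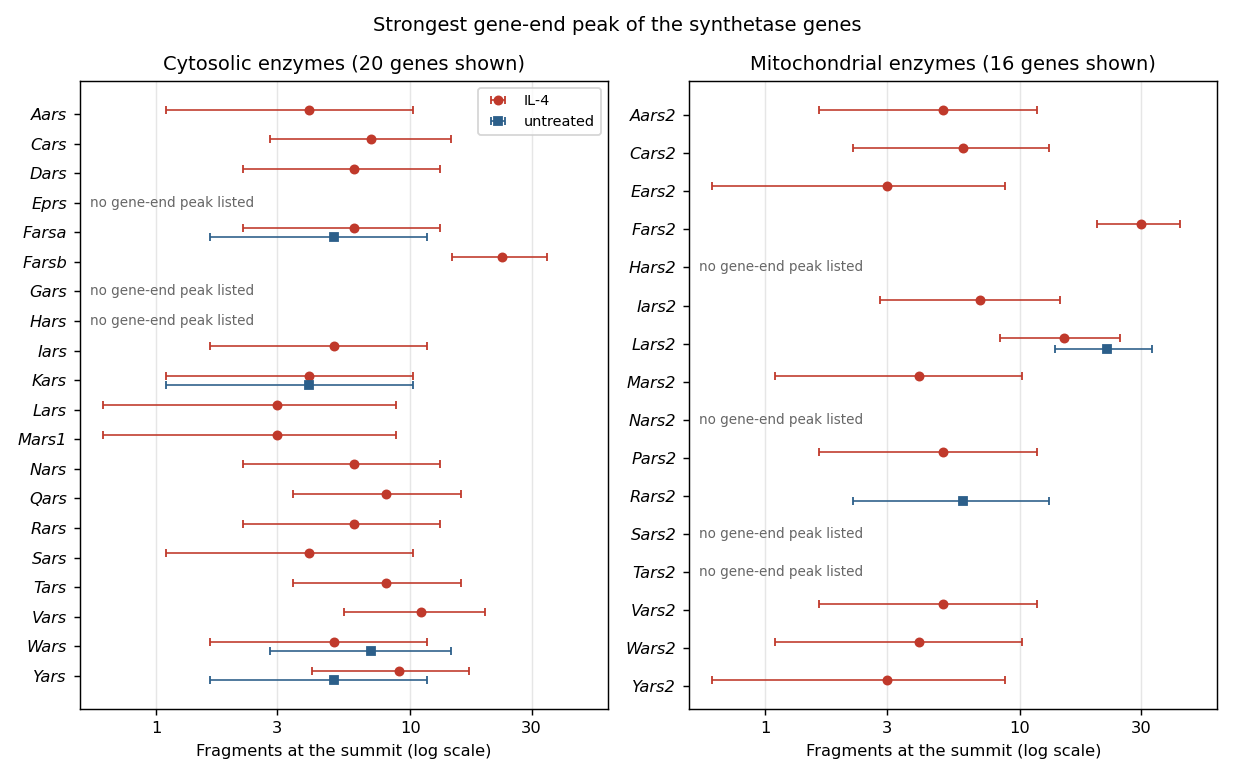
Fragments at the summit (log scale) of the strongest gene-end peak of the synthetase genes reported by name, for the IL-4 list (red circles) and the untreated list (blue squares), with exact Poisson 95% intervals. Fars2 with 30, Farsb with 23 and Lars2 with 22 and 15 fragments stand to the right, and no other member passed 11.

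Below these 3 genes came a step of members at a −log10 q between 3 and 5. Yars, encoding the tyrosyl enzyme, had 9 IL-4 fragments (4.12 to 17.1, −log10 q 4.32) at 53 bp after its annotated start, and 5 untreated ones (1.62 to 11.7, −log10 q 0.74) at 534 bp after it. The 2 peaks did not overlap, and both also lay near an end of S100pbp. Vars, encoding the valyl enzyme, had 11 IL-4 fragments (5.49 to 19.7, −log10 q 4.18) 47 bp from its lower-coordinate end and no untreated gene-end peak. Its IL-4 summit was also within 1 kb of an end of D17H6S56E-5. Tars, encoding the threonyl enzyme, had 8 IL-4 fragments (3.45 to 15.8, −log10 q 3.40) with the summit 6 bp before its start, and none untreated. Qars, encoding the glutaminyl enzyme, had 8 (3.45 to 15.8, −log10 q 3.01), but 740 bp beyond its far end and within 1 kb of an end of Qrich1. Weaker IL-4 peaks of Qars, of 4 fragments each (−log10 q 0.75), lay 222 bp after and 181 bp before its start. So of these 4 genes, Yars and Tars had the strongest peak at a known start.

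A further 7 members had an IL-4 gene-end peak at a q of at most 0.05. Iars2, the mitochondrial isoleucyl gene, had 7 fragments at 133 bp after its start (−log10 q 2.58), and Cars, the cytosolic cysteinyl gene, had 7 at 228 bp from its higher-coordinate end (−log10 q 2.04). Dars, Rars, Cars2 and Nars, encoding the cytosolic aspartyl and arginyl, the mitochondrial cysteinyl and the cytosolic asparaginyl enzymes, had 6 fragments each at −log10 q 1.84, 1.84, 1.83 and 1.44. The seventh was Farsa. None of these 7 had an untreated gene-end peak except Farsa.

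The other IL-4 gene-end peaks of the family rested on few fragments. Of the 29 members with an IL-4 gene-end peak, 15 had 3 to 5 fragments at the strongest one, among them Aars, Iars, Kars, Lars and Wars of the cytosolic genes and Aars2, Mars2, Pars2 and Vars2 of the mitochondrial ones. Wars, encoding the tryptophanyl enzyme, had 5 IL-4 fragments (1.62 to 11.7, −log10 q 1.26) and 7 untreated ones (2.81 to 14.4, −log10 q 0.90). These strongest peaks lay at opposite ends of the gene. A weaker IL-4 peak of Wars, of 3 fragments (−log10 q 0.39), lay 645 bp from the end that held the untreated one, without overlapping it. Kars had 4 in each list (1.09 to 10.2, −log10 q 0.75 and 0.41), also at opposite ends. Lars2 was thus the only one of the 5 members with a peak in both lists where these peaks overlapped. Rars2, the mitochondrial arginyl gene, had gene-end peaks in the untreated list only, of 6 fragments beyond its far end and 4 before its start. Eprs, Gars, Hars, Hars2, Nars2, Sars2 and Tars2 had none in either list. The nearest IL-4 summits to their ends lay 1176 bp (Gars) to 2857 bp (Nars2) away and held 3 to 5 fragments.

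Counted together, 29 of 37 members (78.4%) had an IL-4 gene-end peak, where 49.3% of all protein-coding genes had one. An untreated one was listed for 6 of 37 (16.2%), against 22.7% of all genes. By class, IL-4 alone held 24 members, both lists 5, the untreated list alone 1 and neither list 7, against 35.5%, 13.8%, 8.93% and 41.8% of all genes. At a q of at most 0.05 the counts were 14 with IL-4 (37.8%, all genes 18.3%) and 1 untreated (2.70%, all genes 4.02%), and 13 members had an IL-4 peak alone (all genes 16.8%). At −log10 q 5 or more they were 3 (8.11%, all genes 2.63%) and 1 (2.70%, all genes 0.0548%), the single untreated gene being Lars2 at both thresholds. Lars2 at 6.50 was the member just inside a −log10 q of 5 in the IL-4 list, and Yars at 4.32 the one just outside. The median of the strongest IL-4 gene-end peak was 5 fragments over the 29 members and 5 over the 10790 genes with one.

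A larger share of cytosolic than of mitochondrial genes had an IL-4 gene-end peak over all peaks. This describes the chosen members, and the difference was not tested. IL-4 gene-end peaks were listed for 17 of 20 cytosolic genes (85.0%, Wilson 95% interval 64.0 to 94.8) and for 12 of 17 mitochondrial genes (70.6%, 46.9 to 86.7). The difference was 14.4 percentage points, with a Newcombe interval of −12.1 to 40.1, which includes 0. Such an interval treats genes as independent and members as unselected, so it only shows how small the counts are. At a q of at most 0.05 the counts were 10 of 20 against 4 of 17 (23.5%), a difference of 26.5 points (−4.61 to 50.9). That gap depended on the gene ends used. Within 1 kb of the transcript starts described further on, at the same q, the counts were 4 of 13 (30.8%) against 4 of 14 (28.6%). For gene-end peaks at −log10 q 5 or more the order was the other way, with 1 cytosolic gene, Farsb, and 2 mitochondrial genes, Fars2 and Lars2. The untreated list had gene-end peaks at 4 of 20 cytosolic genes (20.0%), Farsa, Kars, Wars and Yars, and at 2 of 17 mitochondrial genes (11.8%), Lars2 and Rars2. Over all genes 22.7% had an untreated gene-end peak. With IL-4 the shares over all genes were 49.3%, 18.3% at a q of at most 0.05 and 2.63% at −log10 q 5 or more. The median fragments of the strongest IL-4 gene-end peak were 6 for cytosolic and 5 for mitochondrial genes.

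**Figure D2:**
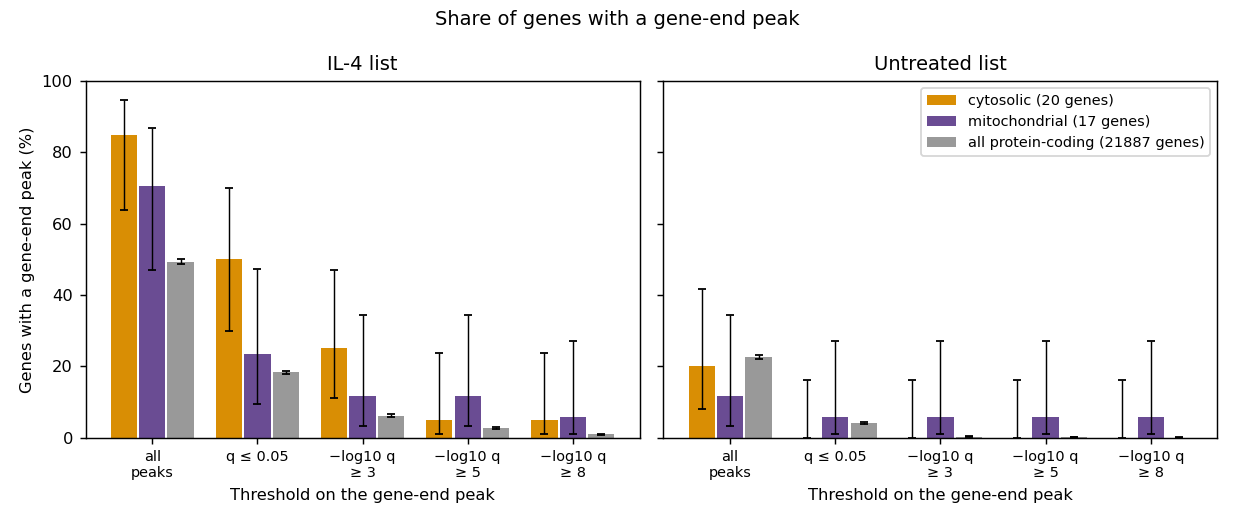
Percent of cytosolic, mitochondrial and all protein-coding genes that had an IL-4 (left) or untreated (right) gene-end peak, at 5 thresholds of the deposited q, with Wilson 95% intervals. The IL-4 share is 85.0% for cytosolic and 70.6% for mitochondrial genes over all peaks, and the cytosolic and mitochondrial intervals overlap at every threshold.

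Sorted by amino acid, 17 amino acids have a mitochondrial gene in the set. For 10 of them both the mitochondrial gene and a cytosolic gene had an IL-4 gene-end peak. For 4, asparagine, arginine, serine and threonine, the cytosolic gene alone had one. For glutamate and proline the mitochondrial genes Ears2 and Pars2 had one and the fused cytosolic Eprs did not, and for histidine neither Hars nor Hars2, which lie next to each other on chromosome 18, had one. Phenylalanine was the one amino acid with a −log10 q over 5 in both compartments.

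The synthetase genes of the multi-synthetase complex were described apart from its scaffold genes. Of the 8 synthetase genes, 7 had an IL-4 gene-end peak (all genes 49.3%), 3 (Dars, Qars and Rars) at a q of at most 0.05 (all genes 18.3%) and 0 at −log10 q 5 or more, a level that 2.63% of all genes passed. Of the 12 other cytosolic genes the numbers were 10, 7 and 1. Among the 3 scaffold genes, Aimp1 stood out with 13 IL-4 fragments (6.92 to 22.2, −log10 q 8.76) at 387 bp after its start and 5 untreated fragments (1.62 to 11.7, −log10 q 0.74) at 424 bp. Aimp2 had 4 fragments in each list, and Eef1e1 had 5 in the untreated list alone.

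Strand was known for the 27 members held in the RefSeq promoter table, which separates starts from opposite ends. These genes had 30 IL-4 gene-end peaks, 15 at the start and 15 at the opposite end (Wilson interval of the start's share 33.2% to 66.8%). Over all genes 69.8% of IL-4 gene-end peaks were at the start. At a q of at most 0.05 the start held 7 of 10 member peaks (70.0%, 39.7 to 89.2) against 85.0% over all genes. The Lars2 peak belongs to a small group: of 496 gene and peak pairs with known strand past a −log10 q of 5 in the IL-4 list, 21 lay at the opposite end. By set, 10 of 17 cytosolic and 5 of 13 mitochondrial IL-4 peaks were at the start.

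**Figure D3:**
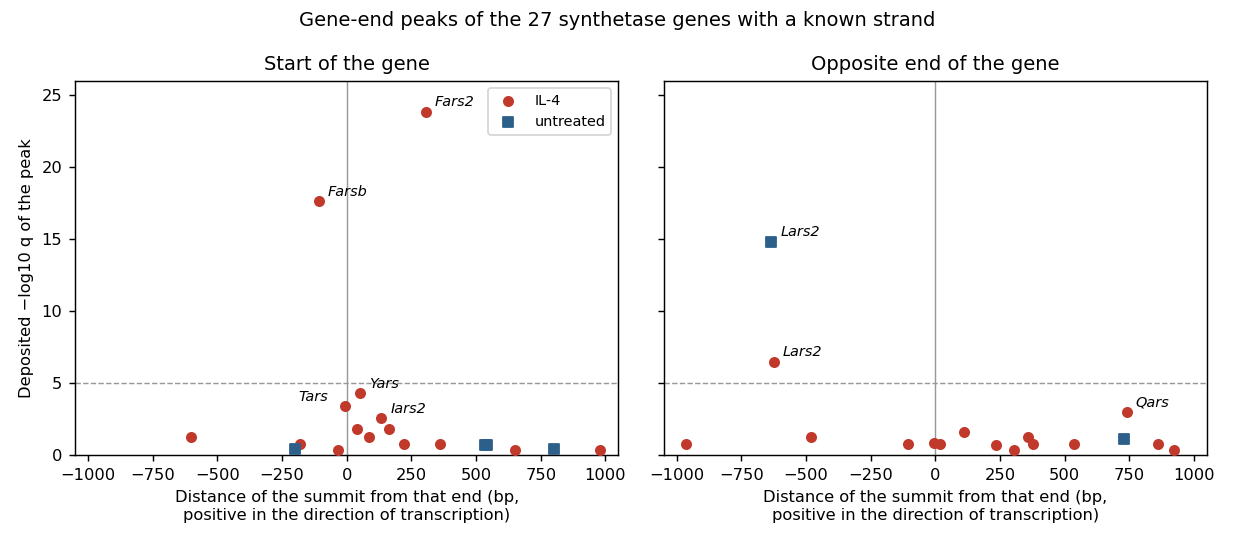
Deposited −log10 q of every gene-end peak of the 27 members with a known strand, against the distance of its summit from the start (left) or from the opposite end (right) in bp, for IL-4 (red circles) and untreated (blue squares). The dashed line marks 5. Fars2 and Farsb stand at the start in the IL-4 list, and both Lars2 peaks stand together inside the opposite end.

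The annotated outer end of a gene is not always where its listed transcript starts, and this moved a few members. Wars2, encoding the mitochondrial tryptophanyl enzyme, had 9 IL-4 fragments (4.12 to 17.1, −log10 q 4.35) on chromosome 3 from 99141013 to 99141413, 56 bp after the transcript start shown above. It lay 1039 bp from the outer end and so just outside the 1 kb window, while the Wars2 peak just inside, at 962 bp from the far end, held 4. Other IL-4 summits near the edge were those of Sars at 978 bp with 3 fragments, inside, and Gars at 1176 bp with 5, outside. Eprs, with no gene-end peak, had 4 fragments 170 bp before its transcript start, and Aars had 3 at 137 bp after its own. Counted around the transcript starts of that table, 17 of 27 members (63.0%) had an IL-4 peak, against 43.3% of all genes, and 4 of 27 (14.8%) an untreated one, against 15.6%. At a q of at most 0.05 the IL-4 count was 8 of 27 (29.6%, all genes 18.1%).

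Some of these peaks could belong to a neighbouring gene as well. For 9 of the 29 members with an IL-4 gene-end peak (31.0%), the strongest one lay within 1 kb of an end of another protein-coding gene, against 21.5% over all genes with such a peak. Among them were Aars with Exosc6, Fars2 with Lyrm4, Iars2 with Bpnt1, Kars with Adat1, a tRNA deaminase gene, Qars with Qrich1, Vars with D17H6S56E-5, Wars with Wdr25 and Yars with S100pbp. Farsb, Tars and Lars2 had no such neighbour.

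Inside the genes, more than 1 kb from either end, most members had more IL-4 than untreated peaks, and so did most genes with an interior. The IL-4 list is also the longer one, and how far its length accounts for this was not tested. The 37 genes held 169 IL-4 and 108 untreated peaks there, or 10.9 and 6.95 per 100 kb, against 10.1 and 6.27 over all genes long enough to have an interior. IL-4 peaks outnumbered untreated ones in 25 of the 37 members and were fewer in 6. Of 19301 protein-coding genes with an interior, 10376 had more IL-4 peaks and 2677 had fewer. The 6 members were Lars2 with 6 and 10, Farsa with 1 and 4, Vars2 with 1 and 3, Ears2 with 4 and 5, Tars2 with 2 and 3, and Kars with 1 and 2. Dars had 6 and 0, Gars 7 and 1, Farsb 10 and 3 and Nars2 10 and 3. Fars2, which spans 420168 bp, had 42 and 31. Cytosolic genes held 11.6 IL-4 and 5.95 untreated peaks per 100 kb, and mitochondrial genes 10.4 and 7.59.

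**Figure D4:**
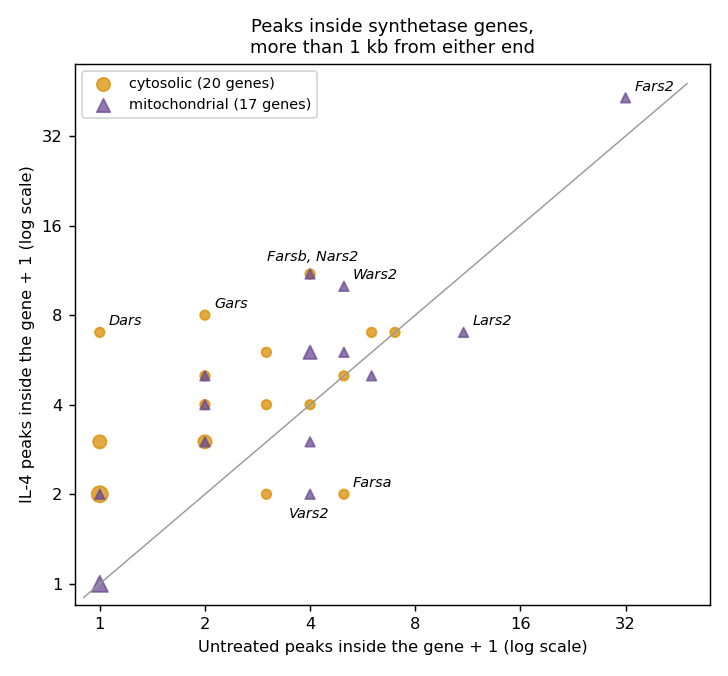
Number of IL-4 peaks against untreated peaks inside each synthetase gene, more than 1 kb from either end, plus 1, on log scales; larger symbols stand for several genes at 1 position. Points above the line, 25 of 37 genes (over all genes 10376 of 19301), have more IL-4 peaks, and Lars2 with 6 and 10 lies below it.

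The start sequences of the family were compared by composition and by 9 short motifs, searched on both strands in the windows of the kind shown above; matches can overlap each other. Windows of the 27 members had a median of 57.7% G and C (48.3 to 71.7) and 18 CG dinucleotides, against 56.3% and 13 over 17492 genes. GGGCGG, the motif of SP and KLF factors, was in 19 of 27 (70.4%, all genes 46.3%), and CCAAT, the motif of NFY, in 13 (48.1%, all genes 39.2%). The E-box CACGTG was in 5, Aars, Ears2, Farsb, Iars and Tars (18.5%, all genes 7.91%). TGATGCAAT, a form of the amino acid response element bound by ATF4, was in 2, Aars and Iars (7.41%, all genes 0.189%). The strongest IL-4 peaks within 1 kb of their transcript starts held 3 and 5 fragments. Only this exact form was searched, so the count does not cover other forms of the element. TGATGCAAC, which differs in the last base, stands in the Yars window shown above and on the opposite strand of the Tars window.
CCGGAAGT, of ETS factors, was in Farsa, Mars1 and Rars2 (11.1%, all genes 5.28%), and GATGGCGG, of YY1, in Aars2 and Yars2 (7.41%, all genes 2.32%). The STAT6 motif, TTC and GAA with 4 bases between them, bound by the transcription factor that IL-4 activates, was in Aars2 alone (3.70%, all genes 6.38%). TGACGTCA of CREB and the palindromic NRF1 motif were in none (all genes 2.33% and 1.33%). Of the starts shown above, Farsb, Iars and Tars hold an E-box in the window, and Fars2, Lars2, Wars2 and Yars hold GGGCGG without one. A match describes letters in a window and is not a bound site.

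Genes of the amino acid response, which act before and after uncharged tRNA is sensed, were looked at beside the synthetases. Of 20 such genes, 12 had an IL-4 gene-end peak (all genes 49.3%) and 5 had one at a q of at most 0.05 (all genes 18.3%), and all 5 were at the start. Eif2ak4, encoding GCN2, the kinase that senses uncharged tRNA, had 10 IL-4 fragments (4.80 to 18.4, −log10 q 5.36) at 28 bp before its start and 5 untreated fragments (1.62 to 11.7, −log10 q 0.74) at 16 bp after it. Atf4 had 10 and 5 (−log10 q 3.61 and 0.74), and Atf5, a related transcription factor, had 8 and 5 (2.53 and 0.74). Ddit3, encoding the stress factor CHOP and lying end to end with Mars1, had 13 IL-4 fragments (6.92 to 22.2) at a −log10 q of 3.40 and none untreated, and Eif2s1, encoding the α subunit of eIF2, had 8 at 2.90. The other 7 with an IL-4 gene-end peak, Cebpb, Cebpg, Ppp1r15a, Psat1, Sesn2, Slc3a2 and Slc7a5, had 3 to 6 fragments there, and Slc7a11 had 6 in the untreated list alone. The remaining 7, Asns, Chac1, Ddit4, Nupr1, Phgdh, Shmt2 and Trib3, had no gene-end peak in either list (all genes 41.8%).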

How the data were processed

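CUT&Tag was deposited as 1 narrowPeak list per library. Tools named in the submitters' processing notes are MACS2 2.2.7.1, Bowtie 0.12.8 and DiffBind, and the build is mm10, with no role or order. The control and the handling of duplicates are not stated there. The authors' deposited values per peak are a fold enrichment (a linear ratio), −log10 p, −log10 q and a score, which equalled 10 times −log10 p with decimals dropped. Entries of 1 interval with several summits were reduced to the one with the highest −log10 q. Fragments at a summit were solved as the whole number n for which (n + 1)/(background + 1) gave the deposited fold and a Poisson tail above n gave the deposited p, which held within 0.01 for 100% of entries in both lists; the step was tested on simulated data. Total reads are not used here. Genes, neighbours and transcript starts came from RefSeq tables of GRCm38.p6, the build of mm10. Positions are counted from 1. Python 3.11.15, pandas 2.3.3 and scipy 1.17.1 were used.

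No test was run, since each group had 1 library. Counts cover all members, but 1 gene is not reported here by name. The members and lists were chosen with earlier results of these data known. Full values were given for members past a −log10 q of 5 or in both lists, then for those past q 0.05, and the rest by ranges; pathway genes were named past q 0.05, and the others named without values served as examples. Alternatives were other windows, starts alone, peak intervals, thresholds and lists of equal length. The transcript starts of the promoter table were added after the data were seen.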

Additional observations from a re-analysis of the deposited data

How the results depend on the processing

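The 24 members with an IL-4 gene-end peak alone stayed between 19 and 23 with windows of 500 bp and 3 kb, with peak intervals in place of summits, with at least 4 fragments and with lists of equal length. Over all genes the share with an IL-4 peak alone was 27.7% to 36.1% in these settings. The members were 13 at a q of at most 0.05 (all genes 16.8%). They were 12 of the 27 with known strand when gene starts alone were counted (all genes 32.2%). Around transcript starts they were 16 of 27 (all genes 34.0%). With the 3 kb window all 37 members had an IL-4 gene-end peak and 18 had one in both lists. Over all genes 73.5% had an IL-4 and 46.3% an untreated gene-end peak at 3 kb. With the 500 bp window 1 member had a peak in both lists. The members past a −log10 q of 5, 3 in number, were 2 with the 500 bp window and at starts alone, which leave out Lars2, and 7 at −log10 q 3 or more. The cytosolic minus mitochondrial difference of 14.4 points ranged from 0 with the 3 kb window, where every member had a peak, to 26.9 points around transcript starts over the other windows, starts, fragment minimum, equal lists and q of at most 0.05. It turned to −6.76 points at −log10 q 5 or more and −0.88 at 8 or more, where 3 and 2 members remain, and was 13.2 at 3 or more; these 3 thresholds were added for this difference after the data were seen. No paired analysis was possible because each group had 1 library. Depth limits the family as it does other genes: 15 of 29 members with an IL-4 gene-end peak (51.7%) had at most 5 fragments there, against 60.9% of all genes with such a peak.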

Other observations

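Elongation factors bring charged tRNA to the ribosome and move it along. All 5 cytosolic elongation factor genes listed had an IL-4 gene-end peak, 4 of them at a q of at most 0.05: Eef1d with 10 fragments (4.80 to 18.4, −log10 q 3.25), Eef1a1 with 8 (2.13), Eef2 with 7 (1.75) and Eef1g with 6 (1.65). The Eef1a1 summit lay 101 bp after the start and the Eef2 summit beyond the far end of the gene. Of the 4 mitochondrial factors, Tsfm had 6 fragments (−log10 q 1.84) and Gfm1 had 5 (1.26), both near the start, and Tufm and Gfm2 had none. Over all genes 49.3% had an IL-4 gene-end peak and 18.3% had one at that q.

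Another 11 genes serve to correct mischarged tRNA, to mature tRNA or to charge it by other routes. Of these, 7 had an IL-4 gene-end peak (63.6%, all genes 49.3%), all of 3 to 6 fragments. At a q of at most 0.05 there were 2 (18.2%, all genes 18.3%), the share of all genes. Gatc, a subunit of the enzyme that makes mitochondrial glutaminyl-tRNA, had 6 fragments (−log10 q 1.84) at 7 bp after its start. Tarsl2, a second cytosolic threonyl synthetase gene outside the member list, had 6 (1.72) at 78 bp before its start and 4 untreated fragments (0.41) at 144 bp before it.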
